A study of Mus musculus with 46 samples.

Results

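The imprinted Dlk1-Dio3 region of mouse chromosome 12 holds a long cluster of miRNA genes that are expressed from the maternally inherited chromosome. The miRNAs described here were chosen by name: every miRNA of the array whose number belongs to a hairpin of that region. Of 44 such numbers, 40 were on the array, and with the suffixed forms of miR-376 they gave 42 of the 334 mouse miRNAs measured. No probe carried the names miR-432, miR-453, miR-544 or miR-654. The rule itself uses names and not signals.

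RNA from 41 mammary tumors of 8 genetically engineered mouse models and from 5 normal mammary glands was hybridised to a custom array carrying 4 spots per miRNA, with each tumor from a single mouse. The study treated 3 models as basal: C3TAg (5 tumors, SV40 T antigen under the C3(1) promoter, FVB strain), p53-/- (7 tumors, MMTV-cre deletion passed on by transplantation, Balb/C) and Brca1-/-p53+/- (5 tumors, MMTV-cre, 129B6/FVB). The other 5 models were treated as luminal, were all on FVB, and carried an oncogene under the mouse mammary tumor virus promoter: MMTV-C-Myc (4 tumors), MMTV-H2N (5), MMTV-Hras (5), MMTV-Wnt (4) and MMTV-PymT (6). The 5 normal glands came from pregnant FVB mice, so no normal gland of the other strains was analysed here and strain cannot be told apart from model for p53-/- and Brca1-/-p53+/-. In whole tumors, a miRNA that is present in fewer cells cannot be told apart from less of it per cell.

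In this region the paternal chromosome expresses the protein genes Dlk1, Rtl1 and Dio3, while the maternal chromosome expresses the long non-coding RNAs Meg3, Rian and Mirg together with small nucleolar RNAs and the miRNAs, which are thought to be cut from long shared transcripts. DLK1 is a membrane protein related to Notch ligands that restrains the differentiation of fat cells, and DIO3 inactivates thyroid hormone. The miRNAs are best known from the embryo, the placenta and the adult brain, and miR-127 and miR-136, which lie opposite the Rtl1 coding sequence, pair with its message perfectly and direct its cleavage.

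By the RefSeq annotation of build GRCm38.p6, all 42 miRNAs matched an entry on chromosome 12 and on the plus strand, over 180.1 kb. They fell into 2 stretches. The first held 12 miRNAs over 54.6 kb (chr12:109563692-109618336), starting with miR-770 inside Meg3, continuing with 9 that overlap the Rtl1 interval, and ending with miR-341 and miR-370 inside Rian. After a gap of 90.7 kb, 30 further miRNAs were packed into 34.7 kb (chr12:109709060-109743795), between miR-379 and miR-410, and 8 of these lay inside Mirg.

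The mature sequences of the miRNAs on which the results turn are given below from RefSeq, with bases 2 to 8, the seed that sets most target pairing, in capitals. The array names gave the arm of the hairpin (5p or 3p) for only a few of the members, so both arms are shown where the name left it open. The first set, miR-127, miR-337, miR-379, miR-541, miR-299 and miR-434-5p, was brighter in a single MMTV-Hras tumor than in any other tumor or gland.
miR-127-5p: cUGAAGCUcagagggcucugau
miR-127-3p: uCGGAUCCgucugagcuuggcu
miR-337-5p: cGGCGUCAugcaggaguugauu
miR-337-3p: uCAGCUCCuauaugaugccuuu
miR-379-5p: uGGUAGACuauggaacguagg
miR-379-3p: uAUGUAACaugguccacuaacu
miR-541-5p: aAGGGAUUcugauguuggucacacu
miR-541-3p: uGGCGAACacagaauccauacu
miR-299a-5p: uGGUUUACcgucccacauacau
miR-299a-3p: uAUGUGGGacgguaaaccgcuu
miR-434-5p: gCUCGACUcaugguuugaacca

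The second set differed between tumor models or between tumors and normal gland. It comprised miR-382, miR-666, miR-665, miR-770-3p, miR-431 and miR-411.
miR-382-5p: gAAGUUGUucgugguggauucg
miR-382-3p: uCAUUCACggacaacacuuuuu
miR-666-5p: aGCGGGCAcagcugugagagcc
miR-666-3p: gGCUGCAGcgugaucgccugcu
miR-665-5p: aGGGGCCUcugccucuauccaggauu
miR-665-3p: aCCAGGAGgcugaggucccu
miR-770-3p: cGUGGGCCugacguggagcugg
miR-431-5p: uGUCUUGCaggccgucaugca
miR-431-3p: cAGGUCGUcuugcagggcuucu
miR-411-5p: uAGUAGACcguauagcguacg
miR-411-3p: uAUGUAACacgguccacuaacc

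A mature sequence was found for 41 of the 42 members, all except miR-485-5p, and their 74 sequences carried 72 different seeds. The 2 shared seeds joined neighbours: miR-379-3p and miR-411-3p carry the seed AUGUAAC, and miR-376b-5p and miR-376c-5p carry UGGAUAU. The cluster therefore varied widely in seed although it is a compact set of genes.

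How many members stood above the background of the array was asked first. The floor of an array was taken as the 5th percentile of all its spots, a signal was the mean of the 4 spots of a miRNA, and a member was counted in a group when 50% or more of its arrays gave it a signal over 3 times their floor. By this measure 40 of the 42 members were above the floor in at least 1 group, 18 in normal gland, 4 in every luminal model and 0 in all 9 groups. The exceptions, which did not reach this share in any group, were miR-543 and miR-758. miR-410 was above 3 times the floor on only 3 of 46 arrays, against 40 of 46 for miR-666, the most widely detected member.

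The floor itself was unequal. C3TAg arrays had floors of 92.7 to 241, p53-/- arrays 61.4 to 114 and Brca1-/-p53+/- arrays 20.5 to 147, whereas in the luminal models and normal gland the floor was 21.0 to 61.3. Deposited values carried no more than 3 digits on 7 arrays, which included every MMTV-Wnt array. The number of members above 3 times the floor was 0 to 10 per array in C3TAg and 2 to 4 in p53-/- tumors, so nearly the whole cluster was at background there. It was 17 to 33 in Brca1-/-p53+/-, 7 to 13 in MMTV-C-Myc, 7 to 25 in MMTV-H2N, 15 to 38 in MMTV-Hras, 25 to 38 in MMTV-Wnt, 22 to 33 in MMTV-PymT and 16 to 26 in normal gland.

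**Figure D1:**
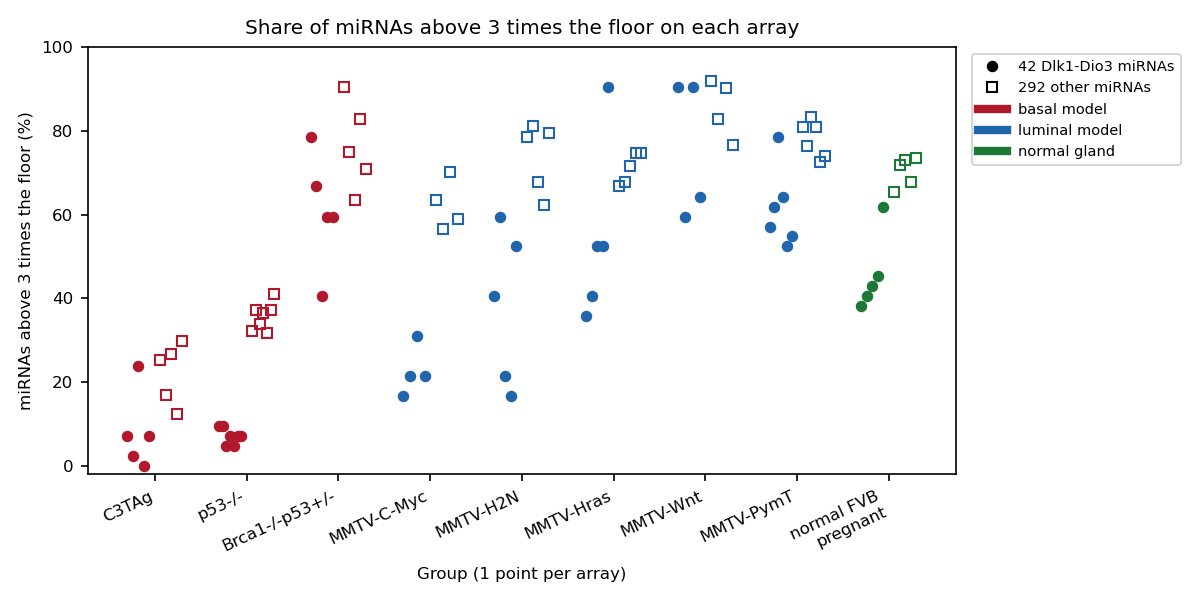
Percentage of the 42 Dlk1-Dio3 miRNAs (filled circles) and of the 292 other miRNAs (open squares) whose signal was above 3 times the floor, with 1 point per array and groups along the x axis. The cluster lay below the other miRNAs on 44 of the 46 arrays, and MMTV-Hras replicate 5 had 38 members above 3 times the floor.

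The cluster was detected less often than the rest of the array on 44 of the 46 arrays. In the median array, 7.14% of the members against 25.3% of the other miRNAs were above 3 times the floor in C3TAg, and 7.14% against 36.6% in p53-/- tumors. In MMTV-C-Myc tumors the values were 21.4% of the members and 61.1% of the other miRNAs, and in MMTV-Wnt tumors 77.4% and 86.5%. Normal gland had 42.9% of the members and 71.9% of the other miRNAs above it. MMTV-Wnt was also the group with the highest median ratio of signal to floor for 23 of the 42 members (54.8%), but it held that place for 48.6% of the other miRNAs as well.

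**Figure D2:**
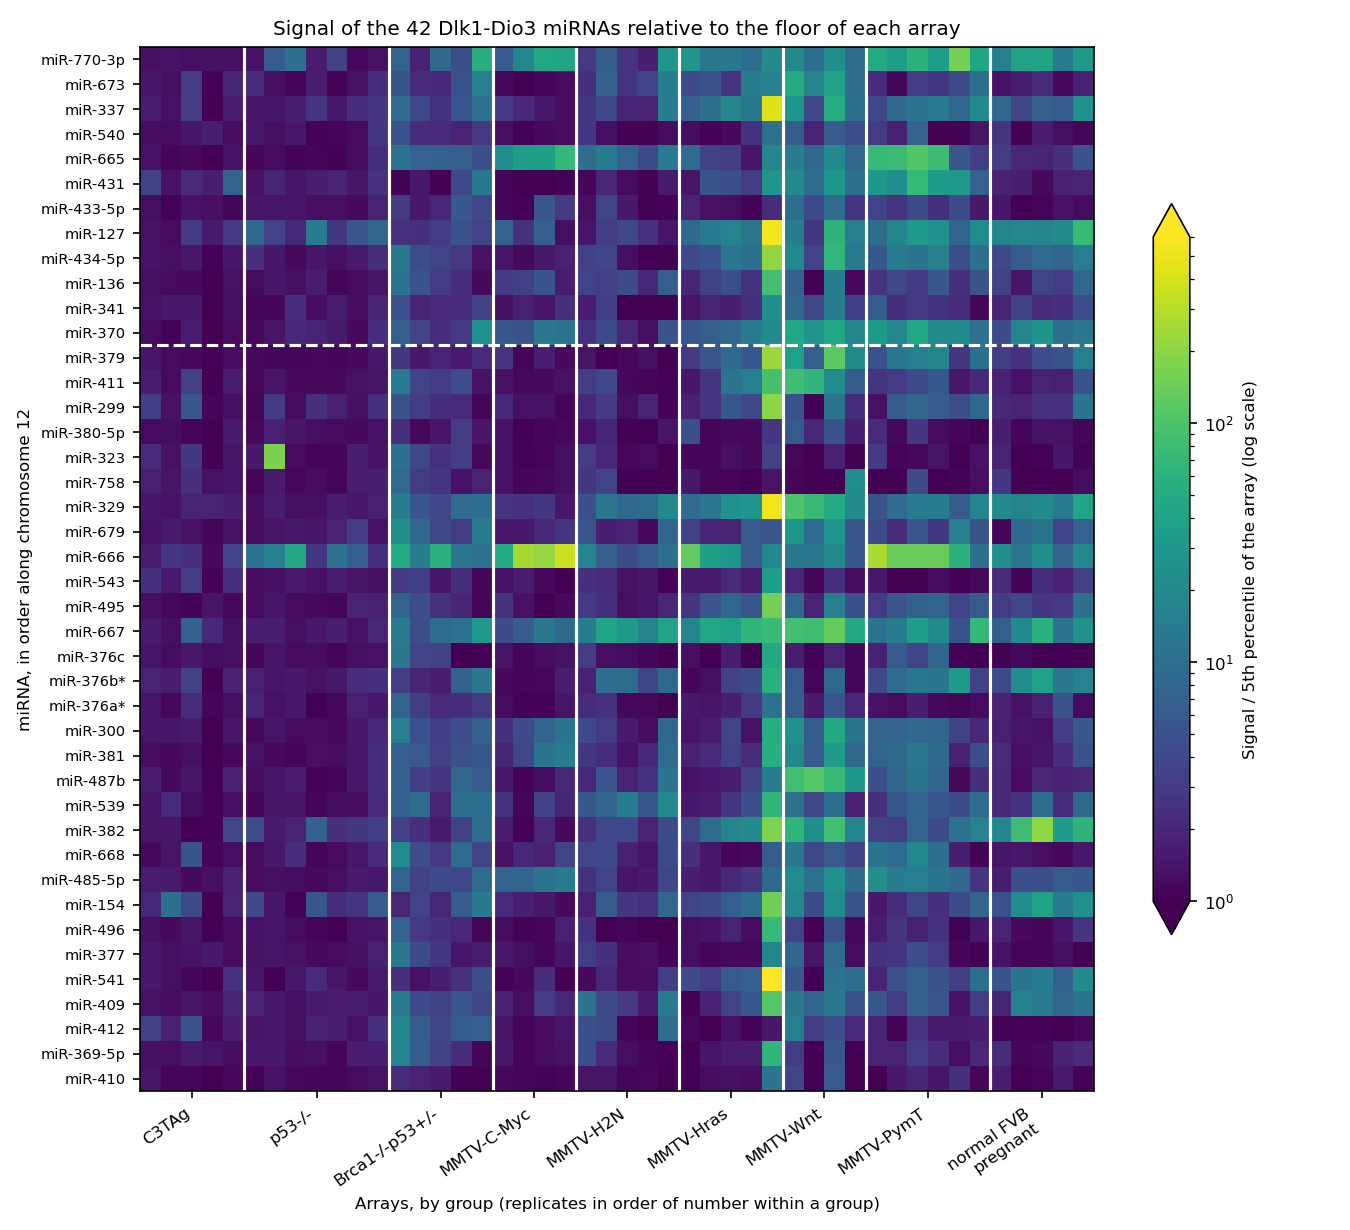
Signal of each member (rows, in order along chromosome 12, with the dashed line at the 90.7 kb gap) divided by the floor of the array, on a log color scale, for all 46 arrays (columns). The column of MMTV-Hras replicate 5 stands out in both stretches, and most rows are dark in the C3TAg and p53-/- arrays.

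Over all 46 arrays the members furthest above the floor, a ratio that also depends on each probe, were miR-666 (median ratio 14.0), miR-667 (13.8), miR-770-3p (10.6), miR-329 (9.34), miR-127 (7.26), miR-370 (5.66), miR-665 (5.25), miR-154 (4.03), miR-337 (3.97) and miR-382 (3.94). Their levels did not follow a common order of groups. By group median, miR-666, miR-665 and miR-770-3p were highest in MMTV-C-Myc and MMTV-PymT tumors, although the single highest miR-770-3p signal, 5508, was in Brca1-/-p53+/- replicate 5. miR-127, miR-329, miR-337 and miR-154 peaked in a single MMTV-Hras tumor, and miR-382 was highest in normal gland.

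That MMTV-Hras tumor, replicate 5, was the strongest departure found within a group. The signal of miR-127 was 15847 in it, against 230, 568, 578 and 410 in the other 4 MMTV-Hras tumors. miR-541 reached 18890, against 111, 124, 196 and 225. miR-337 reached 12935, against 177, 430, 591 and 432. These signals were 27.4, 84.0 and 21.9 times the highest of the other 4 tumors, with no overlap.

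The same held along most of the cluster. miR-329, which is encoded near the start of the second stretch, gave 15769 in replicate 5, against 242, 492, 830 and 920 in the other MMTV-Hras tumors. miR-379, the first miRNA of that stretch, gave 6777, against 76.0, 218, 288 and 190. miR-434-5p, which lies opposite Rtl1 next to miR-127, gave 6251, against 106, 201, 396 and 352. miR-299 gave 5866, against 45.9, 106, 185 and 130. miR-369-5p and miR-496, at the far end of the cluster, were near the floor in the other tumors, with highest signals of 59.8 and 59.1, and gave 1947 and 2297 in replicate 5.

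The difference was asked of the whole array after scaling each array to its median. In replicate 5, 24 miRNAs were more than 4-fold above the highest of the other 4 MMTV-Hras arrays, and 22 of them were members (52.4% of the cluster). Of the 292 other miRNAs only 2 passed this mark, miR-134 and miR-9. miR-134, a regulator of dendritic spines, is encoded within the second stretch but was outside the list of names. Its signal was 1868 in replicate 5, against at most 269 in the other MMTV-Hras tumors. miR-9, a miRNA of neural progenitors that is encoded elsewhere in the genome, gave 3047 in replicate 5, against 27.6, 59.0, 114 and 159.

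**Figure D3:**
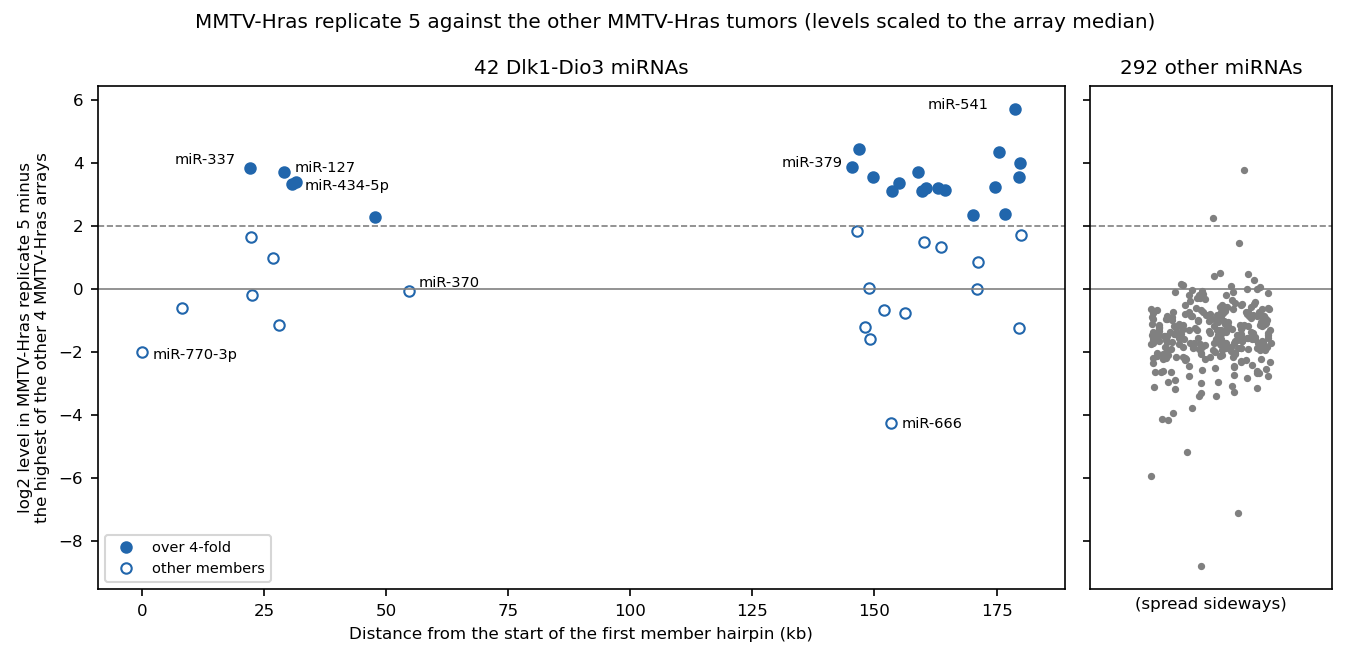
Level in MMTV-Hras replicate 5 minus the highest level among the other 4 MMTV-Hras arrays (log2, arrays scaled to their median), plotted for the 42 members against distance from the first hairpin in kb (left) and for the 292 other miRNAs (right). Above the dashed line at 4-fold lie 22 members and 2 other miRNAs, and the median is 2.31 for the members and -1.47 for the other miRNAs.

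The median member was 2.31 (log2) above the highest of the other MMTV-Hras arrays, whereas the median of the other miRNAs was -1.47. Without scaling, 28 of the 334 miRNAs were more than 4-fold above, and 25 of them were members. Replicate 5 was the brightest MMTV-Hras array, with a median signal of 794 against 236 to 545, while its floor of 29.8 was within the range of 25.6 to 40.2 of the others. It gave the highest signal of all 46 arrays for 22 of the 42 members, and for 26 of all 334 miRNAs. No other array of the series had more than 2 members over 4-fold above the rest of its group.

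The members that were not raised on the scaled measure were spread among those that were. In replicate 5, 11 of the 42 members were not above the highest of the other MMTV-Hras tumors on that measure. Of these, miR-380-5p, miR-412, miR-433-5p and miR-758 were near the floor in replicate 5, at 2.75, 1.47, 2.3 and 1.4 times it. Unscaled, miR-665 was 2.28, miR-370 1.38, miR-433-5p 1.28 and miR-667 1.02 times the highest of the other tumors. miR-666 was the furthest below, with a signal of 588 in replicate 5, against 3285, 1495, 967 and 207. miR-770-3p, inside Meg3, gave 602, against 724, 516, 414 and 336. miR-667 gave 2271, against 453, 1850, 1236 and 2234, and miR-370, inside Rian, gave 636, against 146, 282, 271 and 461. miR-666 lies 0.1 kb from miR-543, which was raised to 1116 in replicate 5 against at most 69.0 in the others.

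Both stretches shared the rise. In the first stretch 5 of 12 members were more than 4-fold above, with a median of 1.32, and in the second 17 of 30, with a median of 2.74. The raised members of the first stretch were miR-337, miR-127, miR-434-5p, miR-136 and miR-341. The 4 spots of miR-541 in replicate 5 read 18525, 18979, 18993 and 19064, and those of miR-127 read 15231, 15459, 15832 and 16867, so the values did not rest on a stray spot.

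Markers of other cell types were read on the same array. None of the 3 skeletal muscle miRNAs measured (miR-1, miR-133b, miR-206), the 4 leukocyte miRNAs, the 3 red cell miRNAs, the 5 stromal and smooth muscle miRNAs or the 5 epithelial miRNAs (the miR-200 family) was above the highest of the other MMTV-Hras arrays after scaling. The summed muscle signal was 577 in replicate 5, against 120 to 20511 in the others, and the summed miR-200 signal was 227455, against 223348 to 306137. The summed stromal signal was 51418, against 16684 to 35460. The summed leukocyte signal was 22337, against 4519 to 25567, and the summed red cell signal 24971, against 23169 to 70979. Among the 4 neural miRNAs, whose summed signal was 4297 against 1071 to 1518, only miR-9 was above the other MMTV-Hras arrays after scaling. Unscaled, replicate 5 was also the highest MMTV-Hras array for miR-219, miR-150, miR-200b, miR-429 and each of the 5 stromal and smooth muscle miRNAs. The part of cell composition in the rise was not tested, and the tumor has no replicate of its own.

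The luminal models and normal gland, all on FVB, were compared next to ask which members differ with the initiating oncogene. Their floors differed less than those of the basal models, at 33.3 to 60.9 in MMTV-C-Myc and 21.0 to 61.3 in MMTV-H2N, against 21.3 to 34.6 in normal gland. Tested by limma's moderated F over these 6 groups, 37 of the 42 members (88.1%) differed at an adjusted p under 0.05, against 92.8% of all 334 miRNAs. Differences among the groups were thus no more frequent in the cluster than on the array as a whole. In MMTV-C-Myc tumors 16 members were higher and 6 lower than in normal gland (all miRNAs: 40.4% higher, 21.3% lower). In MMTV-H2N there were 8 higher and 8 lower (28.7% and 22.5% of all miRNAs), in MMTV-Wnt 5 and 12 (17.1% and 29%), and in MMTV-PymT 3 and 9 (15.9% and 20.1%). MMTV-Hras tumors had 2 higher and 2 lower (6.89% and 11.7%), and without replicate 5 they had 1 higher and 6 lower (6.89% and 12% of all miRNAs). The 5 comparisons share the same normal arrays.

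**Figure D4:**
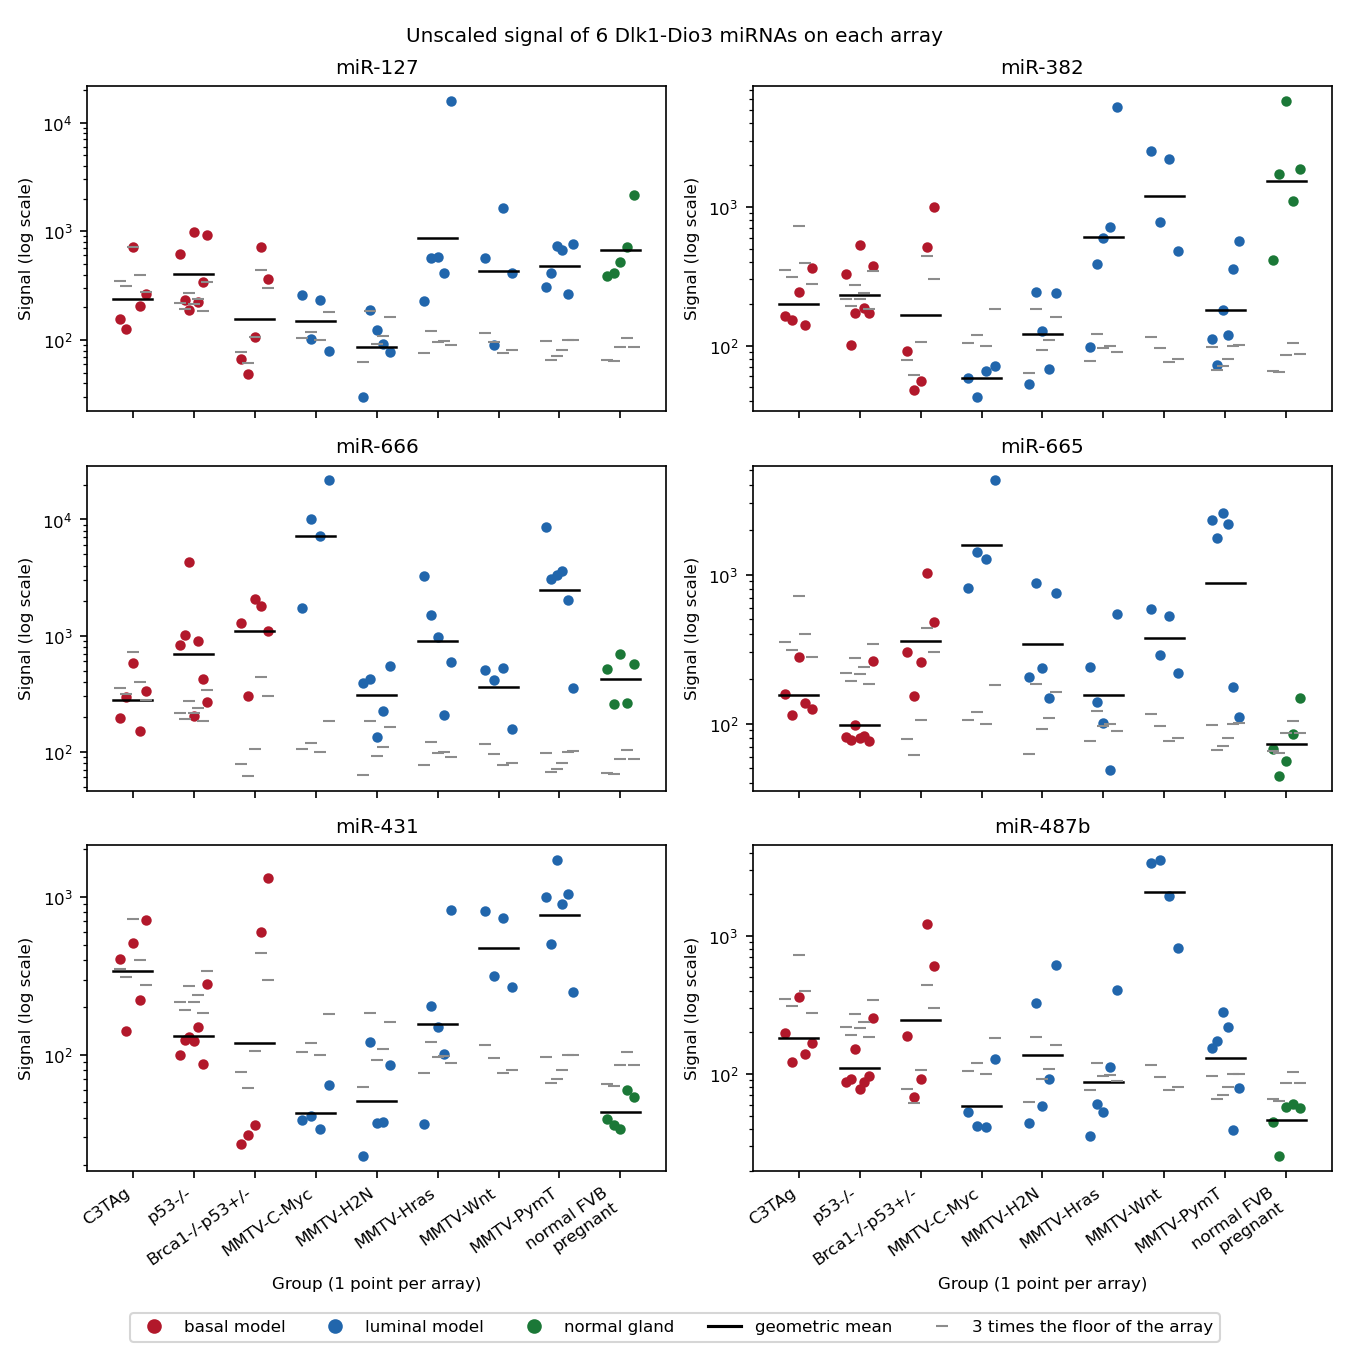
Unscaled signal (log scale) of miR-127, miR-382, miR-666, miR-665, miR-431 and miR-487b on each of the 46 arrays, with 1 point per array, the geometric mean of each group as a black line and 3 times the floor of each array as a grey dash. miR-127 peaks at 15847 in MMTV-Hras replicate 5, miR-666 at 21692 in an MMTV-C-Myc tumor and miR-382 at 5823 in a normal gland.

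miR-665 and miR-666 had the largest rises over normal gland in MMTV-C-Myc tumors among the members above the floor there. miR-666 had signals of 1744, 10111, 7212 and 21692 in MMTV-C-Myc tumors, against 514, 260, 695, 265 and 573 in normal glands. The groups did not overlap, and the difference was 4.64 ± 0.82 (log2, SE; limma adjusted p = 8.7e-06), with all 4 tumors above all 5 glands. miR-665, which lies opposite Rtl1, had signals of 812, 1425, 1277 and 4275 in MMTV-C-Myc tumors, against 67.4, 44.4, 55.9, 84.8 and 149 in normal glands. It was 5.28 ± 0.62 higher (log2, SE; limma adjusted p = 2e-09), although only 2 of the 5 normal arrays were above 3 times the floor. miR-381 followed with 2.83 ± 0.55 (log2, SE; limma adjusted p = 3.7e-05), a size that rests on normal arrays of which only 1 of 5 was above 3 times the floor. miR-665 was higher in MMTV-H2N tumors as well, by 2.45 ± 0.58 (log2, SE; limma adjusted p = 0.00056), with signals of 205, 876, 236, 149 and 756.

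MMTV-PymT tumors differed among themselves in these miRNAs. miR-665 gave 2329, 1751, 2579 and 2167 in replicates 1 to 4 of MMTV-PymT but 177 and 111 in replicates 5 and 6. As a group they were 2.83 ± 0.56 above normal gland (log2, SE; limma adjusted p = 6.1e-05). miR-666 ranged from 355 through a median of 3188 to 8662 in MMTV-PymT, with the lowest value in replicate 6. miR-770-3p, the member inside Meg3, gave 943 to 1632 in 4 of the MMTV-PymT tumors, 815 in replicate 2 and 5210 in replicate 5. Normal glands gave 348, 847, 1181, 489 and 905 for it.

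miR-431, encoded opposite Rtl1, had the largest rise over normal gland in MMTV-PymT tumors. Its signals were 995, 506, 1713, 896, 1043 and 250 in MMTV-PymT tumors, against 39.5, 36.0, 34.0, 60.1 and 54.2 in normal glands, none of which was above 3 times the floor. With the normal arrays set to the detection limit, miR-431 was 6.98-fold higher in MMTV-PymT. On the values as read it was 9.76-fold higher (limma adjusted p = 9.7e-07), with 6 of 6 tumors above every gland. Such limits use, for each dim array, the lowest scaled level among miRNAs above 3 times the floor. MMTV-Wnt tumors also carried it, at 820, 316, 739 and 268, whereas MMTV-C-Myc tumors gave 34.0 to 64.1.

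In MMTV-Wnt tumors the largest rises were those of miR-487b, miR-673 and miR-411. miR-487b gave 3355, 3542, 1938 and 816 in MMTV-Wnt, against 44.6, 25.5, 57.2, 60.4 and 56.7 in normal glands. With the normal arrays set to the detection limit it was 10.6-fold higher, and 14.5-fold on the values as read (limma adjusted p = 6.6e-09). miR-411 gave 3288, 2175, 552 and 176 in MMTV-Wnt, against 39.1, 28.2, 53.5, 60.8 and 144 in normal glands, a difference of 2.39 ± 0.58 (log2, SE; adjusted p = 0.00079), with 1 of 5 normal arrays above 3 times the floor. miR-379, whose 3p arm has the seed of miR-411-3p, gave 1518, 220, 3020 and 558 in MMTV-Wnt and 71.3, 52.9, 129, 179 and 454 in normal glands. At the same limit miR-673 was 3.51-fold higher in MMTV-Wnt, and 5.32-fold on the values as read (limma adjusted p = 0.00041). All 4 MMTV-Wnt arrays were above 3 times the floor for it. In MMTV-H2N the difference was 2.12 ± 0.52 (log2, SE; limma adjusted p = 0.00075), with 3 of 5 MMTV-H2N and 0 of 5 normal arrays above 3 times the floor.

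On arrays scaled to their median, miR-382 was lower than normal gland in all 5 luminal models, and in 3 or 4 of them under each of the 6 other scalings. It gave 58.5, 42.8, 65.9 and 71.2 in MMTV-C-Myc, 52.9, 243, 127, 67.8 and 241 in MMTV-H2N, and 72.0 through a median of 149 to 569 in MMTV-PymT. Normal glands gave 414, 1733, 5823, 1111 and 1872. No MMTV-C-Myc array was above 3 times the floor. With these arrays set to the detection limit, miR-382 was 9.13-fold lower there, and 16.8-fold on the values as read (limma adjusted p = 1.6e-07). It fell by 3.66 ± 0.54 in MMTV-H2N (log2, SE; adjusted p = 8.2e-07) and by 4.01 ± 0.52 in MMTV-PymT (adjusted p = 4.4e-08). MMTV-Wnt tumors had unscaled signals of 2530, 776, 2215 and 483 on arrays whose medians were 492 to 1735, so that their scaled mean was 0.22 ± 0.43, against 2.28 ± 0.99 in normal gland (log2 above the array median, SD, n = 4 and 5), a limma difference of -2.06 ± 0.58 (SE, adjusted p = 0.0035). This MMTV-Wnt call was lost under each of the 6 other scalings, with -0.35 when unscaled (adjusted p = 0.75). Others were lower in 4 of the 5 models on the median scale: miR-154 and miR-541 in each but MMTV-Hras, and miR-376b* in each but MMTV-H2N. Without MMTV-Hras replicate 5, miR-154 and miR-541 were lower in MMTV-Hras too, at -1.67 (limma adjusted p = 0.029) and -1.20 (adjusted p = 0.035), against -0.93 (adjusted p = 0.37) and 0.00 (adjusted p = 1) with it. Under the other scalings these 3 were lower in 1 to 3 models. In MMTV-C-Myc tumors none of the arrays was above 3 times the floor for these 3 miRNAs.

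In MMTV-Hras, miR-382 gave 97.9, 390, 594, 711 and 5225. The difference of -1.86 ± 0.54 from normal gland (log2, SE; limma adjusted p = 0.0096) became -2.44 ± 0.52 without replicate 5 (adjusted p = 0.00069). It no longer passed the threshold without replicate 1 or without normal replicate 3, or under several of the other scalings. miR-411 passed in MMTV-Hras only with replicate 5 included (1.91 ± 0.54, adjusted p = 0.0085), and its difference was 1.28 without it.

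miR-127, the member opposite Rtl1 that is best known for cutting its message, was past the threshold in 3 of the 5 luminal models and lower in each of those. It gave 30.3, 189, 123, 91.4 and 78.3 in MMTV-H2N tumors, 572, 90.9, 1652 and 412 in MMTV-Wnt tumors and 267 through a median of 545 to 761 in MMTV-PymT tumors, against 392, 414, 522, 719 and 2176 in normal glands. The difference in MMTV-H2N was -2.90 ± 0.64 (log2, SE; limma adjusted p = 0.00022), and the MMTV-H2N signals were all below the normal ones. Only 2 of the 5 MMTV-H2N arrays were above 3 times the floor, so the size of this difference is read partly from arrays at background. In MMTV-Wnt the scaled difference was -2.36 ± 0.68 (limma adjusted p = 0.004), while the unscaled ranges overlapped and the call was lost without scaling (-0.66) and without MMTV-Wnt replicate 2 (-1.62). The difference was -1.55 ± 0.68 in MMTV-C-Myc (limma adjusted p = 0.044), where 2 of 4 arrays were above 3 times the floor, and not past the threshold under 4 of the 6 other scalings. It was -1.33 in MMTV-PymT (adjusted p = 0.078) and -0.14 in MMTV-Hras (adjusted p = 0.95; -0.98 without replicate 5, adjusted p = 0.27), none of them past the threshold.

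As an unweighted mean of the 5 luminal models, 9 members were higher and 6 lower than in normal gland, 21.4% and 14.3% of the cluster, against 22.2% and 20.7% of all miRNAs. The median over the members was 0.09 (log2) and over all miRNAs 0.06. The median member thus stood 0.03 above the median of the array in this comparison. Unscaled signals gave 10 and 2 members, against 28.1% and 8.08% of all miRNAs, and quantile normalization gave 2 and 5, against 15.0% and 13.2%. Scaling to the brightest miRNAs gave 12 and 3, against 34.1% and 12.9%, and subtracting the floor with no scaling gave 5 and 1, against 18.9% and 7.78%. The largest differences past the threshold were a rise of miR-665 (2.39 ± 0.45, limma adjusted p = 3.8e-05) and falls of miR-382 (-3.13 ± 0.42, adjusted p = 1.3e-07), miR-376b* (-2.15 ± 0.47, adjusted p = 0.00029), miR-154 (-2.0 ± 0.47, adjusted p = 0.0007), miR-541 (-1.71 ± 0.49, adjusted p = 0.0043) and miR-127 (-1.65 ± 0.50, adjusted p = 0.0063). miR-487b was 1.53 ± 0.33 (limma adjusted p = 0.00023), miR-673 1.49 ± 0.40 (adjusted p = 0.0024) and miR-431 1.47 ± 0.41 higher (adjusted p = 0.0032). These 3 were above 3 times the floor on 12, 14 and 14 of the 24 luminal arrays and on 0 of the 5 normal ones, so the sizes are read in large part from arrays at background. miR-381 was 1.30 ± 0.40 higher (adjusted p = 0.0081), but not past the threshold without normal replicate 3.

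All 8 tumor models together had 21 of 42 members higher and 6 lower than normal gland, against 37.7% and 27.5% of all miRNAs. The count of higher members was 9, with 5 lower, once the C3TAg and p53-/- arrays with the highest floors were left out, against 22.2% and 23.1% of all miRNAs. Over the other scalings the higher count ran from 3 (floor subtracted, unscaled, where 9.88% of all miRNAs were higher) to 32 (brightest miRNAs, where 61.4% were higher), and the lower count from 1 to 3. The named members with the largest rise were miR-665 (2.32 ± 0.44, limma adjusted p = 1.6e-05), miR-487b (1.98 ± 0.32, adjusted p = 1.6e-06), miR-673 (1.98 ± 0.39, adjusted p = 2.9e-05), miR-431 (1.97 ± 0.39, adjusted p = 3.9e-05) and miR-668 (1.85 ± 0.38, adjusted p = 4.6e-05), all as log2 and SE. miR-665 was above 3 times the floor on 28 of the 41 tumor arrays and 2 of the 5 normal ones, miR-487b on 16 tumor arrays and the other 3 on 18 each, with 0 of the 5 normal arrays, so the sizes of the last 4 are read mostly from arrays at background. miR-382 fell by 2.78 (SE 0.41, adjusted p = 3.9e-07). The falls of miR-376b* (-1.51), miR-154 (-1.30), miR-127 (-1.28) and miR-541 (-1.18) were lost under the 75th percentile, where they were -0.70, -0.50, -0.48 and -0.37.

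The comparison of basal with luminal tumors, the main division made by the study, depended on how the arrays were scaled. On the arrays scaled to their median, 35 of the 42 members (83.3%) were higher in basal tumors and 0 lower, against 44.6% and 26.0% of all 334 miRNAs, and the median difference was 1.45 (log2) over the members and 0.55 over all miRNAs. Unscaled signals gave 13 members higher and 5 lower, against 19.8% and 47.3% of all miRNAs. When each floor was subtracted and the arrays were left unscaled, 1 was higher and 11 were lower, against 1.8% and 57.5%. Quantile normalization gave 22 and 1, against 39.5% and 22.8%. The median of all miRNAs itself moved between -1.34 and 2.57 with the scale, and the members stood 0.90 above it on the median scale. A scaling by 1 constant per array cannot change this gap, and of the settings that can, subtracting the floor gave 0.80 and quantile normalization 0.32.

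**Figure D5:**
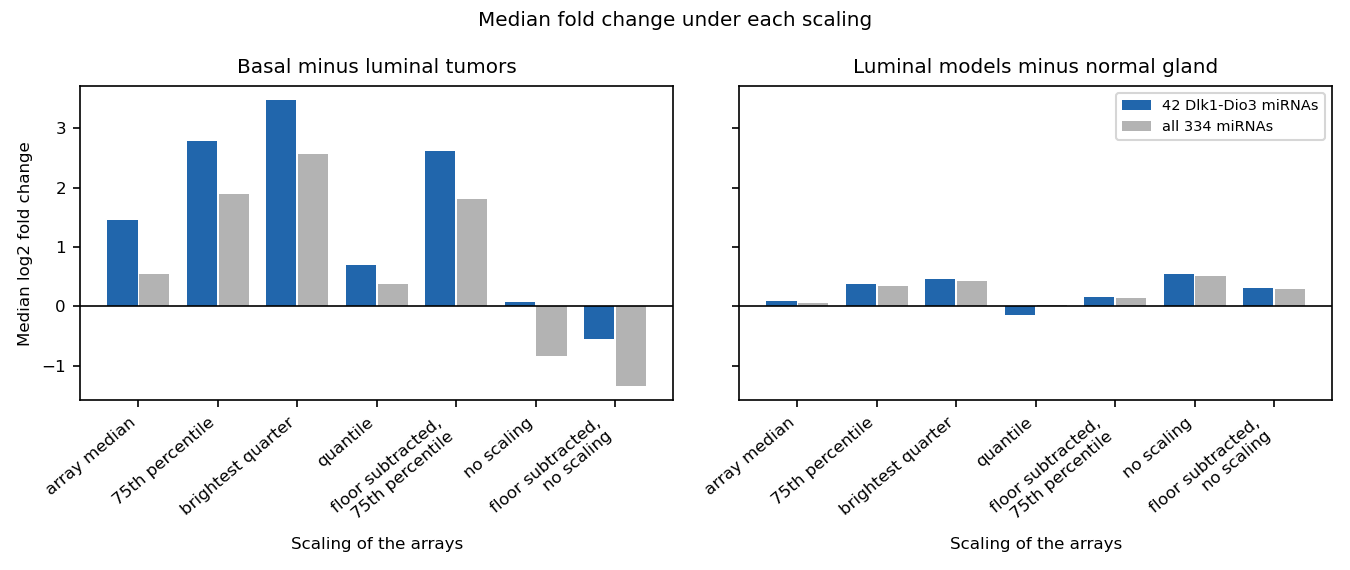
Median log2 fold change of the 42 members (blue bars) and of all 334 miRNAs (grey bars) under 7 scalings of the arrays, for basal minus luminal tumors (left) and luminal models minus normal gland (right). The basal minus luminal median of the members runs from 3.47 with the brightest miRNAs as the scale to -0.54 with the floor subtracted and no scaling.

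Most of the members called higher in basal tumors were near the floor there. The 35 were above 3 times the floor on 0 (miR-410) to 8 (miR-127 and miR-154) of the 17 basal arrays, and 30 of them on 5 or fewer. The median ratio of members to the floor was 1.38 in C3TAg, 1.33 in p53-/- and 3.71 in Brca1-/-p53+/- tumors, against 1.48 to 9.34 in the luminal models. With each model taken as a random block, 16 members were higher, against 26.0% of all miRNAs, and with the model means as samples 18, against 25.4%. Without the C3TAg and p53-/- models, 14 remained higher, all of them among the 35, against 22.5% of all miRNAs. The part of the floor in this difference was not tested.

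miR-412 and miR-323, which the study had itself placed with basal tumors from these arrays, are therefore not independent evidence. miR-412 gave 488, 134, 137, 936 and 671 in Brca1-/-p53+/- tumors, each above 3 times the floor, and 393, 189, 1252, 152 and 154 in C3TAg tumors, 2 of them above it. The 393, in C3TAg replicate 1, rested on 1 spot at 1049 with the next at 188. The median of its spots was not above 3 times the floor. In p53-/- tumors miR-412 gave 82.7 through a median of 116 to 271, none above that level. Among luminal tumors 6 of 24 passed that level, none of them MMTV-Hras, MMTV-PymT or MMTV-C-Myc, and among normal glands 0 of 5. In the fit with single tumors as samples and no term for the model, basal tumors were 2.89 ± 0.30 above luminal ones (log2, SE; limma adjusted p = 2e-11). The difference was not past the threshold with the floor subtracted and no scaling (0.65).

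miR-323 had the largest difference of the cluster in the same fit of single tumors, 3.12 ± 0.35 (log2, SE; limma adjusted p = 8.5e-11), but few arrays stood behind it. Only 4 of 17 basal and 2 of 24 luminal tumors had a signal more than 3 times the floor. Its highest signal, 10954 in p53-/- replicate 2, came from a single spot at 43522, while the other 3 spots of the same miRNA on that array read 89.5, 98.4 and 108. The remaining p53-/- tumors gave 81.0 to 155. miR-369-5p (2.52 ± 0.35), miR-376a* (2.51 ± 0.29) and miR-380-5p (2.44 ± 0.28), the next largest, were above 3 times the floor on 3, 2 and 1 of 17 basal arrays. With the floor subtracted and no scaling their differences were 0.13, 0.20 and 0.07.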

How the data were processed

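Total RNA from single tumors and glands was labelled with the dye Hy3, per the labels, and hybridised by the authors to custom arrays with 4 spots for each of 334 mouse miRNAs. The deposited values are processed spot intensities on a linear scale, and the authors' log2 table is the log2 of these intensities with each array's median moved to 8.00. Signals were extracted with a GE2 protocol, and 1 value column per sample was used. The genome build is not given in the sources used here, and probe sequences were not used. Of the value columns, 1 matched no sample label and was not used. Intensities were turned into log2, each array's median was subtracted and the 4 spots were averaged. Groups were compared by limma 3.58.1 (lmFit and eBayes, R 4.3.3) over all 334 miRNAs with Benjamini-Hochberg adjustment and a threshold of 0.05, after the procedure was tested on simulated data. Basal and luminal classes are the study's. The number of arrays limits precision, and p-values measure the spread between these tumors.

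The members and lists were chosen with earlier results of these data known. Of the 10 members highest above the floor, all but miR-154 are given array by array, each for selected groups. Per comparison the up to 5 members in each direction with the largest change past the threshold are named (3 for a single model, among members above the floor on at least 50% of the arrays of 1 side), with miR-412, miR-323 and members sharing a seed. miR-541, miR-379, miR-434-5p, miR-299, miR-369-5p, miR-496, miR-136, miR-341 and miR-543 were added after their values in MMTV-Hras replicate 5 were seen. Alternatives were other scalings, floor subtraction, blocks and leaving out arrays or models; the median of the 4 spots was chosen after seeing the data.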

Additional observations from a re-analysis of the deposited data

Results flagged for a closer look

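Within groups, 10 readings of the members furthest above the floor stood apart by Dixon's ratio, the gap to the nearest sample over the range of the group. In MMTV-Hras, replicate 5 was highest with ratios of 0.789 for miR-127, 0.786 for miR-154, 0.83 for miR-329 and 0.846 for miR-337. C3TAg replicate 3 was highest for miR-337 (0.765) and miR-667 (0.743). Brca1-/-p53+/- replicate 5 was highest for miR-370 (0.785), p53-/- replicate 7 for miR-665 (0.676) and MMTV-PymT replicate 5 for miR-770-3p (0.711). MMTV-C-Myc replicate 3 was lowest for miR-382 (0.909), where none of the 4 arrays was above 3 times the floor.

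Over all members and groups, 43 of 378 pairs passed the critical ratio, which chance passes in about 1 of 20 groups. MMTV-Hras held 20 of them, each with replicate 5 as the highest array, and the other 8 groups held 23 of 336.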

How the results depend on the processing

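No named difference changed sign. Of 53, 45 stayed past the threshold without each array in turn, and 24 lost it after floor subtraction with no scaling, 16 with quantile normalization and 12 without scaling. Members higher in basal than luminal tumors numbered 35 (44.6% of all miRNAs, each percentage being over all miRNAs under the same setting), against 1 (floor subtracted, unscaled; 1.8%), 13 (no scaling; 19.8%), 22 (quantile; 39.5%), 16 (model as a random block; 26.0%), 18 (model means; 25.4%) and 14 (without the C3TAg and p53-/- models; 22.5%). Those lower numbered 0 (26.0%), against 11 (floor subtracted, unscaled; 57.5%), 5 (no scaling; 47.3%), 1 (quantile; 22.8%) and 1 (without the MMTV-PymT model; 26.0%). For all tumor models against normal gland, 21 were higher (37.7%), against 32 (brightest miRNAs; 61.4%), 3 (floor subtracted, unscaled; 9.88%), 6 (quantile; 19.5%) and 9 (without the C3TAg and p53-/- models; 22.2%), and 6 were lower (27.5%), against 1 (brightest miRNAs; 10.8%), 2 (floor subtracted, unscaled; 26.9%), 1 (floor subtracted, 75th percentile; 13.5%), 2 (no scaling; 25.7%), 1 (75th percentile; 14.1%) and 3 (quantile; 17.4%). For luminal models against normal gland, 9 were higher (22.2%), against 5 (floor subtracted, unscaled; 18.9%), 4 (without the MMTV-C-Myc model; 15.9%) and 2 (quantile; 15.0%), and 6 were lower (20.7%), against 3 (brightest miRNAs; 12.9%), 3 (3-digit arrays as a block; 16.2%), 1 (floor subtracted, unscaled; 7.78%) and 2 (no scaling; 8.08%). Differences among the luminal models and normal gland numbered 37 (92.8%), against 21 (floor subtracted, unscaled; 76.9%). The causes were not tested.

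Without each array in turn, the counts ran from 34 to 36 (basal higher; 43.4% to 45.5% of all miRNAs), 0 to 1 (basal lower; 24.9% to 27.2%), 18 to 21 (tumors higher; 34.7% to 38.6%), 3 to 7 (tumors lower, 3 without normal replicate 5; 24.9% to 28.7%), 4 to 10 (luminal higher, 4 without normal replicate 3; 17.1% to 23.4%), 5 to 7 (luminal lower; 15.6% to 21.3%), 33 to 38 (any difference; 90.4% to 93.4%) and 35 to 41 (above the floor). With the replicate number as a block, 33 members were higher and 0 lower in basal than luminal tumors (43.1% and 26.0% of all miRNAs). For all tumor models against normal gland the counts were 21 and 6 (37.7% and 29%). For luminal models against normal gland they were 9 and 6 (23.1% and 21.6%). Differences among the luminal models and normal gland numbered 35 (93.1%), and no named call changed. Same-numbered arrays of different groups had a mean correlation of 0.0283 and others -0.00559, so the numbers gave no pairing. The methods' t-test called 33 members between basal and luminal tumors at its threshold (all higher; 40.7% of all miRNAs were higher and 24.3% lower) and 35 after Benjamini-Hochberg adjustment (all higher; 44.6% and 26.0%). The floor limits every comparison with C3TAg and p53-/- tumors.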

Other observations

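miR-494 is encoded in the second stretch but was outside the list of names. Its signal was 33112 through a median of 52356 to 77500 in MMTV-C-Myc, 9408 to 52825 in MMTV-Wnt and 15355 to 27899 in MMTV-PymT tumors, against 1678 through a median of 6725 to 13773 in normal glands. In C3TAg (102 to 271) and p53-/- tumors (71.8 to 153) no array was above 3 times the floor, whereas Brca1-/-p53+/- tumors gave 3187 to 11238.

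On the scaled measure, miRNAs of other imprinted loci did not share the rise in MMTV-Hras replicate 5. miR-335 of the Mest gene, miR-483 of Igf2, miR-675-5p of H19, and miR-296 and miR-298 of the Gnas region were 5 measured miRNAs, and 0 of them was above the highest of the other MMTV-Hras arrays after scaling. Unscaled, their summed signal was 8578, against 4870 to 7439, and miR-298 alone was highest in replicate 5 (4447, against at most 3077). miR-335 was highest in MMTV-Wnt tumors, at 2832 to 61950, against 306 to 1115 in normal glands.

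miR-9 was not particular to the MMTV-Hras tumor: it reached 13099 in an MMTV-PymT tumor, and its median was 2609 in MMTV-PymT, against 131 in normal glands. Its mean over the spots was 27393 in p53-/- replicate 7, but this was not borne out on the scaled measure. There, 0 miRNAs of that array were more than 4-fold above the rest of its group, so the 27393 is not read as a level.

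Of 1932 readings of a member on an array, 49 had 1 spot more than 4-fold above the next brightest of the 4. In 24 of these the mean passed 3 times the floor and the median of the spots did not, as for miR-323 in p53-/- replicate 2. With the median of the spots in place of their mean, 34 members were higher in basal tumors and 0 lower, against 43.4% and 26.3% of all miRNAs.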
